A study of Mus musculus with 32 samples.

Results

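The libraries described here are the 8 gingival RNA-seq libraries, of 32 in the series and 16 from gingiva, that came from mice whose maxillary left 2nd molar carried a built-up occlusal surface of composite resin. All mice were 9-week-old wild-type C57BL/6J males. In 4 libraries, called LiTra, the same tooth also carried a 6-0 silk ligature; in the other 4, called Tra, it did not. The libraries were taken by their group labels alone, so no measured value entered the choice. Both groups carry the resin, and what separates them is the ligature. The comparison thus asks how gingival transcripts differ with a ligature around a tooth that also carries the built-up surface; the order of the treatments is not stated in the labels. A second pair of groups, Li (ligature alone, 4 libraries) and Co (no treatment, 4 libraries), gives the ligature difference without resin. All 16 gingival libraries entered 1 fit, so Li and Co also bear on the spread estimate behind every p-value; leaving out 1 Co or Li library gave between 3388 genes called in LiTra against Tra (without Co 3) and 4150 (without Li 2), and the 8 libraries alone gave 3734. The count table heads the Tra and LiTra columns CR and LiCR, which were read as composite resin and thereby matched to the labels. The labels give no time between treatment and sampling, no measure of the occlusal force, and no statement that each library came from its own animal, so each p-value reflects only how far these libraries vary.

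A silk ligature at the gingival margin holds a bacterial biofilm against the tooth, and the gingiva answers with cytokines and chemokines that draw neutrophils and monocytes out of the vessels. Stromal cells and leukocytes release proteases that cut collagen, and the cytokine RANKL drives myeloid precursors to become osteoclasts, which resorb the alveolar bone. The gingiva is covered by a keratinised stratified epithelium whose basal cells divide and whose upper cells build a cornified envelope, while the junctional epithelium seals the tooth surface.

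The labelled tissue matched its defining transcripts, with Odam, a protein of the junctional epithelium, present in all 8 libraries. The 26 tested keratin genes took 12.9 to 14.2% of TMM-scaled counts in the Tra libraries and 7.93 to 9.21% in the LiTra libraries. Every share of counts given for a list is of such scaled counts, not of the raw total. TMM factors were 0.9154 to 0.9839 in Tra and 1.007 to 1.082 in LiTra. Shares of the raw total would thus be lower than printed in Tra and higher than printed in LiTra. Total counts were 43476345 to 50740393 in Tra and 39202498 to 41525475 in LiTra. On the first principal component, with 29.98% of the variance, LiTra libraries lay at 61.14 to 83.98 and Tra libraries at -61.58 to -28.84. The Tra libraries differed among themselves in transcripts of tissue other than gingival mucosa. Skeletal muscle genes took 1.14% of counts in Tra 1 and 0.318% in Tra 2 but 0.0148% and 0.0398% in Tra 3 and Tra 4, and gland genes took 0.0981%, 1.96%, 0.418% and 0.272% in Tra 1 to 4. Each list was also counted without Tra 1 and Tra 2, and those counts stand beside the list or together near the end. Levels are CPM, TMM-normalised counts scaled to a common library size, log2 differences are LiTra minus Tra with their standard error, and adjusted p-values are from edgeR's two-sided quasi-likelihood test with Benjamini-Hochberg adjustment over 20143 genes. In whole tissue, a change in the number of cells of a type and a change in RNA per cell cannot be told apart. Genes named outside the naming rule were chosen after their values were seen. CPM is not scaled by gene length, so it counts reads and not molecules when genes are set side by side.

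With the ligature, 3787 genes (18.8% of those tested) passed an adjusted p of 0.05, of which 1885 rose (9.36%) and 1902 fell (9.44%). At least 2-fold changes among them numbered 903 up and 777 down, and at least 16-fold changes 63 up and 99 down. The rises led with acute-phase, alarmin, neutrophil and protease genes and small proline-rich proteins of the epithelium, and the largest falls by fold were mucous gland genes. By amount, the largest falls were keratins of the differentiated epithelium. The groups' CPM ranges did not overlap for 4729 genes (23.5%). The list counts below are to be read against the shares of all genes that rose (9.36%) or fell (9.44%). A single gene that rose or fell is under these shares in each list. Without Tra 1 and Tra 2, 3230 genes passed, 2357 of them shared with the full comparison. The median log2 difference of all genes was -0.015, and scaling by library totals moved it to 0.131, with 4357 genes called, 3100 up and 1257 down, which is 71.1% up against 49.8%.

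**Figure D1:**
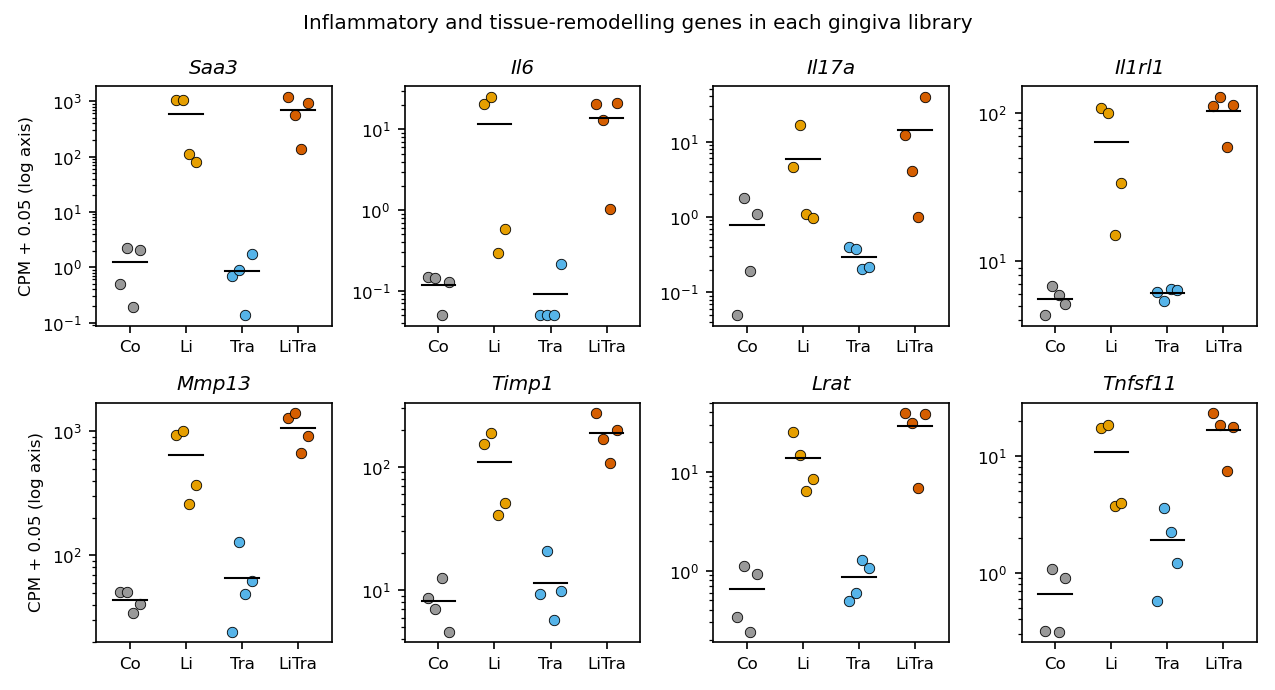
CPM plus 0.05, on log axes, of Saa3, Il6, Il17a, Il1rl1, Mmp13, Timp1, Lrat and Tnfsf11 in each gingival library of the 4 groups, 1 point per library with the group mean as a bar. Saa3 lies at 0.0868 to 1.70 CPM in Tra and at 136 to 1196 CPM in LiTra, and for all 8 genes every LiTra point is above every Tra point.

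The serum amyloid gene Saa3, an acute-phase protein made locally in inflamed tissue, had the largest rise among genes of moderate abundance whose groups did not overlap. It stood at 0.640, 0.840, 0.0868 and 1.70 CPM in Tra 1 to 4 and at 1196, 554, 136 and 911 CPM in LiTra 1 to 4, a log2 difference of 9.74 ± 1.33 (adjusted p = 0.000747). Every LiTra library lay above every Tra library, with LiTra 3 the lowest of the 4. Serpina3n, a secreted serine protease inhibitor of the acute phase, kept the LiTra libraries in that order, at 8.99, 27.9, 9.44 and 14.0 CPM in Tra against 481, 221, 75.3 and 406 CPM in LiTra (4.29 ± 0.70, adjusted p = 0.00183). Of 26 tested acute-phase and antimicrobial genes, 9 rose and none fell, and their median log2 difference was 0.89. Among the 9 were Saa1 (5.13 ± 1.31) and Saa2 (6.58 ± 1.47), close paralogs of Saa3 between which reads may be split, Nos2, the inducible nitric oxide synthase (3.40 ± 0.83), the epithelial defensin gene Defb14 (0.91 ± 0.23) and the antibacterial lectin gene Reg3g (4.04 ± 1.17). Reg3g missed the threshold without Tra 3, Tra 4 or LiTra 2 (adjusted p = 0.0612 to 0.0799). Without both Tra 1 and Tra 2, Saa1 (adjusted p = 0.0808) and Nos2 (adjusted p = 0.0519) missed it. With limma-voom, Saa2 did not pass (adjusted p = 0.097). Lcn2, which sequesters bacterial siderophores, was at 53.0, 131, 17.2 and 50.5 CPM in Tra and 338, 108, 62.7 and 297 CPM in LiTra, with overlapping groups and an adjusted p of 0.187.

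Interleukin 6, the cytokine that switches on acute-phase genes through STAT3, was all but undetected without the ligature. Its level was 0, 0, 0 and 0.165 CPM in Tra and 20.6, 13.2, 0.971 and 21.1 CPM in LiTra (8.34 ± 1.69, adjusted p = 0.0047). LiTra 3 held far less Il6 than the other LiTra libraries but still more than any Tra library. Socs3, the feedback inhibitor that STAT3 induces, stood at 14.7, 22.6, 15.7 and 19.4 CPM in Tra against 162, 86.3, 64.3 and 163 CPM in LiTra (2.72 ± 0.41, adjusted p = 0.00116). The receptor subunit gene Osmr, which binds oncostatin M, rose by 1.53 ± 0.22 and Csf2rb, the common chain of the GM-CSF receptor, by 2.15 ± 0.42. In all, 8 of 16 tested genes of the interleukin 6 and colony-stimulating factor families rose and none fell (median 1.29), among them Csf3, the growth factor of neutrophils (3.20 ± 0.72, adjusted p = 0.00788), and Lif (1.80 ± 0.41). Csf2 was not called (-0.55 ± 1.16, adjusted p = 0.798). With limma-voom, Il6 did not pass (adjusted p = 0.342).

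Promoter windows are printed for Il6, Saa3, Mmp3 and Mmp13, which were higher in every LiTra library than in any Tra library. Windows of other genes that rose in this way are not printed. The printed genes were chosen after the values were seen. Each window runs from 250 bases before to 50 bases after the annotated start, in 300 bases read 5′ to 3′ on the gene's strand, from RefSeq's annotation of GRCm38.p6. Capitals mark matches to 3 motifs searched on both strands: AP-1 as TGANTCA, C/EBP as TTGCNNAA, and the NF-kB consensus. The Il6 window lies at chr5:30012864-30013163 on the plus strand, Saa3 at chr7:46715627-46715926 on the minus strand, Mmp3 at chr9:7445572-7445871 and Mmp13 at chr9:7272264-7272563, both on the plus strand.
Il6: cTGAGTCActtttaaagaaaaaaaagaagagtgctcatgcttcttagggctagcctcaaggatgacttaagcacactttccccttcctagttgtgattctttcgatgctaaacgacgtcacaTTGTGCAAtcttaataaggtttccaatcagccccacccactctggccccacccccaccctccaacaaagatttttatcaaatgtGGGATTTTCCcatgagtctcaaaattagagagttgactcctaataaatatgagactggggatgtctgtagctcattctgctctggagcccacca
Saa3: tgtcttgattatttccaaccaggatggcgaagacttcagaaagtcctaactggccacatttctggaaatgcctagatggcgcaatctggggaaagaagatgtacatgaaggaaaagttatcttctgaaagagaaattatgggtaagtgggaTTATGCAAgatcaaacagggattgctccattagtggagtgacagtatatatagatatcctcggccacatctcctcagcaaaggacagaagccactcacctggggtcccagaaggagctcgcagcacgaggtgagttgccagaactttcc
Mmp3: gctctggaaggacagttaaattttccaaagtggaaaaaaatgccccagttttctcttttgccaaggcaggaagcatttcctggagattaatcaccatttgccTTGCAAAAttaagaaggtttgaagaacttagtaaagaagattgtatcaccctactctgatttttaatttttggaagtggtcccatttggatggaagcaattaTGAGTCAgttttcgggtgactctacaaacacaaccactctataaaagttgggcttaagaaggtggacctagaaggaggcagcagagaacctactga
Mmp13: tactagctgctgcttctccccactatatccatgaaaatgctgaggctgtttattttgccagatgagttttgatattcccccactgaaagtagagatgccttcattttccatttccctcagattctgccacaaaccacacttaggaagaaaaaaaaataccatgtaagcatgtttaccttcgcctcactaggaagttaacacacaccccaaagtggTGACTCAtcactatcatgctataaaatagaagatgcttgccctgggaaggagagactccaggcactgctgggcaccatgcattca
Counted from the annotated start, Il6 holds an AP-1 match at -249 to -243, a C/EBP match on the opposite strand at -128 to -121 and an NF-kB match at -44 to -35. Saa3 holds a C/EBP match on the opposite strand at -99 to -92, Mmp3 a C/EBP match at -148 to -141 and an AP-1 match at -46 to -40, and Mmp13 an AP-1 match at -35 to -29. No letters of the 3 motifs overlap each other in these windows. The unprinted windows of Timp1, Tnfsf11, S100a8, Serpina3n, Lrat, Apln, Socs3 and Sprr2a1, which also rose with groups apart, held 0 matches. Those of Il19 (NF-kB), Ppbp (AP-1), Il1rl1 (C/EBP) and S100a9 (C/EBP), which rose too, held 1 match each. The printed windows thus do not stand for the genes that rose. Among the 13254 tested genes with a window, 5.12% held the NF-kB consensus, 6.01% the AP-1 letters and 8.94% the C/EBP letters. In the 1387 windows of all genes that rose, these shares were 6.78%, 7.35% and 10.9%, close to those of all tested genes. In the 1433 windows of all genes that fell, they were 4.47%, 6.77% and 9.0%. In the 210 windows of genes that rose at least 4-fold they were 7.62%, 16.2% and 21.9%. In the 181 of genes that fell at least 4-fold they were 6.08%, 8.29% and 14.9%. A match is a description of letters, not a measured binding site.

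Cytokines of the interleukin 17 and 20 families were low in Tra. Il17a, a T cell cytokine that makes epithelium and stroma release neutrophil chemokines, stood at 0.345, 0.323, 0.152 and 0.165 CPM in Tra and 12.1, 4.07, 0.947 and 39.2 CPM in LiTra (5.82 ± 1.41, adjusted p = 0.0111). The LiTra libraries were all higher but spread widely, from LiTra 3 to LiTra 4. Il17f, its close relative, was at 0.0985 CPM in Tra 1 and at 0 in the other Tra libraries, and at 7.68, 2.00, 0 and 27.0 CPM in LiTra, so the groups met at 0 (8.46 ± 2.08, adjusted p = 0.0156). Il22, which acts on epithelial cells, had no count in Tra and 105 counts in 3 of the 4 LiTra libraries, at least 36.4-fold higher against a floor of 3 counts over the group. Il19, an interleukin 20 family ligand, was at 0, 0, 0 and 0.141 CPM in Tra and 8.36, 10.6, 0.923 and 10.2 CPM in LiTra (7.65 ± 1.39, adjusted p = 0.00401), and Il24 rose by 4.85 ± 1.33. Il22 missed the threshold without Co 4, any 1 Tra library, LiTra 1, LiTra 2 or LiTra 4 (adjusted p = 0.0527 to 0.072), Il24 without Tra 1 or LiTra 1 (adjusted p = 0.0529 to 0.055), and Il17f without both Tra 1 and Tra 2 (adjusted p = 0.0848).

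The receptor chain genes Il20ra and Il20rb moved in opposite directions. Il20ra rose from 0.0985, 0.495, 0.326 and 0.188 CPM to 6.44, 5.31, 1.87 and 6.49 CPM (4.16 ± 0.61, adjusted p = 0.000971), while Il20rb fell from 54.0, 45.7, 45.1 and 46.4 CPM to 22.0, 23.8, 29.6 and 18.8 CPM (-1.02 ± 0.14, adjusted p = 0.000747). Neither gene's groups overlapped. Of 17 tested genes of this axis, 10 rose and 2 fell (median 1.20). That count of 10 became 6 without Tra 1, 5 without LiTra 1, 6 without LiTra 4, 3 without both Tra 1 and Tra 2, and 5 with limma-voom, where Il17a (adjusted p = 0.233) and Il19 (adjusted p = 0.151) did not pass. Il17a also missed the threshold without Tra 1 and Tra 2 (adjusted p = 0.0566).

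In the interleukin 1 family the receptors and the alarmin side rose beside the ligands. Il1rl1, the receptor of interleukin 33 known as ST2, stood at 6.13, 5.34, 6.45 and 6.36 CPM in Tra and 112, 129, 59.0 and 114 CPM in LiTra (4.09 ± 0.50, adjusted p = 0.00052). Tra libraries were almost equal and the lowest LiTra library lay far above them. Its ligand Il33, an alarmin kept in nuclei of stromal, endothelial and epithelial cells, went from 70.7, 64.0, 64.3 and 60.9 CPM to 179, 145, 126 and 169.7 CPM (1.25 ± 0.18, adjusted p = 0.000889). Il1b, the inflammasome-processed cytokine, was at 39.2, 85.9, 4.67 and 24.3 CPM in Tra and 510.1, 196, 137 and 401 CPM in LiTra (3.01 ± 0.86, adjusted p = 0.025). Tra 3 held much less Il1b than the other Tra libraries, and the groups did not overlap.

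Il1r1, the signalling receptor of interleukin 1, rose by 1.40 ± 0.23, Nlrp3, the inflammasome sensor, by 2.65 ± 0.75, and Il1rn, the receptor antagonist, by 0.96 ± 0.27. Il1f10, which encodes interleukin 38, fell by 1.96 on the log2 scale (adjusted p = 0.00945), and the inflammasome genes Pycard and Casp1 fell too, Casp1 by 0.39 (adjusted p = 0.0438). Altogether 11 of 19 tested members rose and 3 fell (median 0.76). The 3 falls became 5 without Li 2 and 1 without Tra 1, Tra 4, LiTra 3 or LiTra 4. The 11 rises became 5 without Tra 1 or without Tra 4, and 4 without Tra 3, without LiTra 1 or without LiTra 4. Nlrp3 missed the threshold without Tra 1, Tra 3, Tra 4, LiTra 1 or LiTra 4 (adjusted p = 0.0508 to 0.0653), Il1rn without Tra 1, Tra 3, LiTra 1 or LiTra 4 (adjusted p = 0.0631 to 0.079), Pycard without Tra 1, Tra 4, LiTra 3 or LiTra 4 (adjusted p = 0.0559 to 0.0784), and Casp1 without any 1 Co or LiTra library, Li 1, Tra 1, Tra 3 or Tra 4 (adjusted p = 0.051 to 0.121). Il1b itself missed the threshold without Tra 1, Tra 4, LiTra 1 or LiTra 4 (adjusted p = 0.0594, 0.0674, 0.0631 and 0.0568).

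In the TNF family 12 of 22 tested genes rose and none fell (median 1.23), while Tnf itself was not called. Tnf stood at 2.83, 6.74, 2.54 and 3.74 CPM in Tra and 7.58, 4.69, 9.35 and 12.1 CPM in LiTra (1.09 ± 0.43, adjusted p = 0.0921), and Tra 2 lay above LiTra 2. Among the 12 were Birc3, an inhibitor of apoptosis (1.504 ± 0.269, adjusted p = 0.00267), Tnfaip3, the feedback deubiquitinase A20 (1.20 ± 0.32), Nfkbia, the inhibitor of NF-kB (0.90 ± 0.25), and Nfkb2 (0.99 ± 0.28). Of the receptors, Tnfrsf1b rose from 11.9, 22.0, 8.03 and 10.95 CPM to 58.5, 37.5, 51.1 and 57.8 CPM (1.95 ± 0.42, adjusted p = 0.00613) and the death receptor gene Fas by 1.26 ± 0.27. The 12 became 7 without LiTra 4. Nfkbia missed the threshold without Tra 3, Tra 4, LiTra 1 or LiTra 4 (adjusted p = 0.0596 to 0.0886), Tnfaip3 without Tra 1, Tra 3 or LiTra 4 (adjusted p = 0.0559 to 0.0676), and Nfkb2 without Tra 1, Tra 2 or LiTra 4 (adjusted p = 0.056 to 0.0747).

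Chemokines that act on neutrophils and on monocytes both rose. Cxcl5, an epithelial ligand of CXCR2, stood at 70.1, 117, 44.5 and 116 CPM in Tra and 862, 298, 575 and 686 CPM in LiTra (2.80 ± 0.45, adjusted p = 0.00154). Ppbp, whose gene lies in the same CXC cluster, went from 97.8, 138, 96.6 and 193 CPM to 1049, 446, 1261 and 882 CPM (2.79 ± 0.41, adjusted p = 0.000982). In both genes LiTra 2 was the lowest ligated library and still above all Tra libraries. The monocyte attractant Ccl2 went from 1.28, 1.62, 0.369 and 1.319 CPM to 27.1, 15.5, 9.75 and 35.2 CPM (4.25 ± 0.74, adjusted p = 0.00237), and Ccl7, which shares its receptor, rose by 3.86 ± 0.69.

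Cxcl12, the stromal ligand of CXCR4, rose by 1.43 ± 0.35 from a mean of 37.6 ± 4.597 (SD, n = 4) to 100.98 ± 8.67 CPM (SD, n = 4; adjusted p = 0.0124). Ccl28, a mucosal and gland chemokine, fell by 1.91 on the log2 scale (adjusted p = 0.0448), with overlapping groups, and missed the threshold without Co 1 to 3, Li 4, Tra 2 to 4 or any 1 LiTra library (adjusted p = 0.0511 to 0.137) and with library totals as the scaling (adjusted p = 0.0516). Of 34 tested CXC and CC chemokines 12 rose and 1 fell (median 1.49). Ccl20, the ligand of CCR6, was not called (0.87 ± 0.95, adjusted p = 0.586).

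Neutrophil transcripts rose in 15 of the 22 listed genes. S100a8, a subunit of calprotectin, stood at 127, 197, 42.6 and 113 CPM in Tra and 3279.9, 1483, 896 and 3582 CPM in LiTra (4.27 ± 0.80, adjusted p = 0.00334), and its partner S100a9 rose by 4.25 ± 0.84. The ligated libraries all lay far above the highest Tra library, and LiTra 1 and LiTra 4 were the highest. Cxcr2, the neutrophil chemokine receptor, went from 5.59, 10.2, 4.43 and 5.37 CPM to 72.7, 27.3, 27.4 and 48.5 CPM (2.78 ± 0.63, adjusted p = 0.00818). Fpr1, which senses bacterial formyl peptides, rose by 3.85 ± 0.85, Trem1, a receptor that amplifies inflammation, by 2.97 ± 0.74, and Mmp8, the neutrophil collagenase, by 3.12 ± 0.92. Mmp8 missed the threshold without any 1 Tra library, LiTra 1 or LiTra 4 (adjusted p = 0.0503 to 0.0771).

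The granule genes Mpo (-1.25 ± 1.89, adjusted p = 0.708) and Ltf (-0.80 ± 0.63, adjusted p = 0.419), which neutrophil precursors transcribe in the marrow, were not called and had overlapping groups. Ly6g was not called either, with overlapping groups (2.13 ± 1.71, adjusted p = 0.431), while Mmp8 rose as given above. Ltf is also made by glands. The 22 tested neutrophil genes took 0.0241 to 0.127% of counts in Tra and 0.270 to 0.975% in LiTra. Of them 15 rose and none fell (median 2.68), and 12 rose without both Tra 1 and Tra 2. The count became 8 when any of Tra 1, Tra 3, Tra 4, LiTra 1 or LiTra 4 was left out.

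Monocyte and macrophage genes rose in 11 of 21 tested and fell in none (median 1.46). Cd14, the endotoxin co-receptor, went from 9.04, 24.1, 8.97 and 7.63 CPM to 119, 73.9, 51.1 and 143 CPM (2.96 ± 0.57, adjusted p = 0.00354). Msr1, a scavenger receptor, went from 1.67, 6.76, 1.65 and 2.85 CPM to 23.6, 21.0, 19.1 and 25.1 CPM (2.77 ± 0.51, adjusted p = 0.003). Tra 2 was the highest Tra library for both genes and for Cd68, and no Tra library reached a LiTra library. The lineage receptor Csf1r rose by 1.21 ± 0.24 and the lysosomal glycoprotein gene Cd68 by 1.57 ± 0.33. Marco, a scavenger receptor, had no count in Tra and 77 counts in LiTra, at least 26.7-fold higher. The resident macrophage genes Adgre1 (0.57 ± 0.29, adjusted p = 0.185) and C1qa (0.61 ± 0.29, adjusted p = 0.15) were not called.

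Of 14 dendritic and Langerhans cell genes 3 rose and 1 fell (median 0.95). The gene that fell was Cd207, which encodes langerin of Langerhans cells: it stood at 4.65, 8.27, 2.04 and 5.68 CPM in Tra and 1.44, 1.54, 1.73 and 1.79 CPM in LiTra (-1.66 ± 0.35, adjusted p = 0.00565). LiTra libraries were close together just below the lowest Tra library. Of 11 MHC class II genes 3 rose (median 0.73), including Ciita, the class II transactivator, from 5.71, 3.88, 3.43 and 6.26 CPM to 14.1, 8.10, 14.7 and 18.1 CPM (1.51 ± 0.36, adjusted p = 0.00958), and Ctss, the cathepsin that trims the invariant chain (1.74 ± 0.42). The 3 dendritic genes became 0 without Tra 1, Tra 3 or LiTra 3, 1 without LiTra 2 or LiTra 4, 6 without Li 2 and 5 without Li 4, and the 3 class II genes became 5 without Li 2 and 2 without Tra 1, Tra 3, LiTra 1, LiTra 3 or LiTra 4.

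Of 21 T and NK cell genes 5 rose and 1 fell (median 0.98). Cd3g, a chain of the T cell receptor complex, went from 1.28, 0.646, 0.630 and 0.777 CPM to 2.25, 1.96, 4.498 and 4.61 CPM (2.00 ± 0.53, adjusted p = 0.0169), Trbc2 rose by 0.98 ± 0.26, and Foxp3, the factor of regulatory T cells, reached 1.37 CPM at most in these 8 libraries and rose by 2.16 ± 0.65. Cd5, a coreceptor of T cells, fell from 7.63, 9.85, 8.40 and 7.61 CPM to 4.05, 5.96, 6.16 and 3.30 CPM (-0.78 ± 0.24, adjusted p = 0.0316), and missed the threshold without Tra 2, Tra 3, LiTra 1 or LiTra 4 (adjusted p = 0.0613 to 0.0962). Cd3e was not called (0.02 ± 0.95, adjusted p = 0.993). The 5 became 2 without Tra 1, Tra 3 or LiTra 3, 3 without Tra 4, 1 without LiTra 4, and 1 without both Tra 1 and Tra 2 (median 1.20), where none fell and Trbc2 (adjusted p = 0.0999) and Cd5 (adjusted p = 0.119) missed the threshold. Without LiTra 4, Cd3g (adjusted p = 0.0521) and Trbc2 (adjusted p = 0.0559) missed the threshold, and Foxp3 missed it without Tra 1, Tra 3, Tra 4, LiTra 2 or LiTra 3 (adjusted p = 0.0566 to 0.0915). None of 18 B and plasma cell genes rose and 1 fell (median -0.31): Fcer2a, the low-affinity IgE receptor, with 66 counts in Tra and 3 in LiTra, a ratio of 21.2 with a counting interval of 6.93 to 105. Of 11 mast cell and basophil genes 1 rose (median -0.27). It was Hdc, the histidine decarboxylase that neutrophils also express, at 10.9, 21.3, 1.67 and 3.74 CPM in Tra and 115, 46.1, 28.0 and 84.1 CPM in LiTra (2.86 ± 0.84, adjusted p = 0.0277). Hdc missed the threshold without Tra 1, Tra 3, Tra 4, LiTra 1 or LiTra 4 (adjusted p = 0.0588 to 0.0739).

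**Figure D2:**
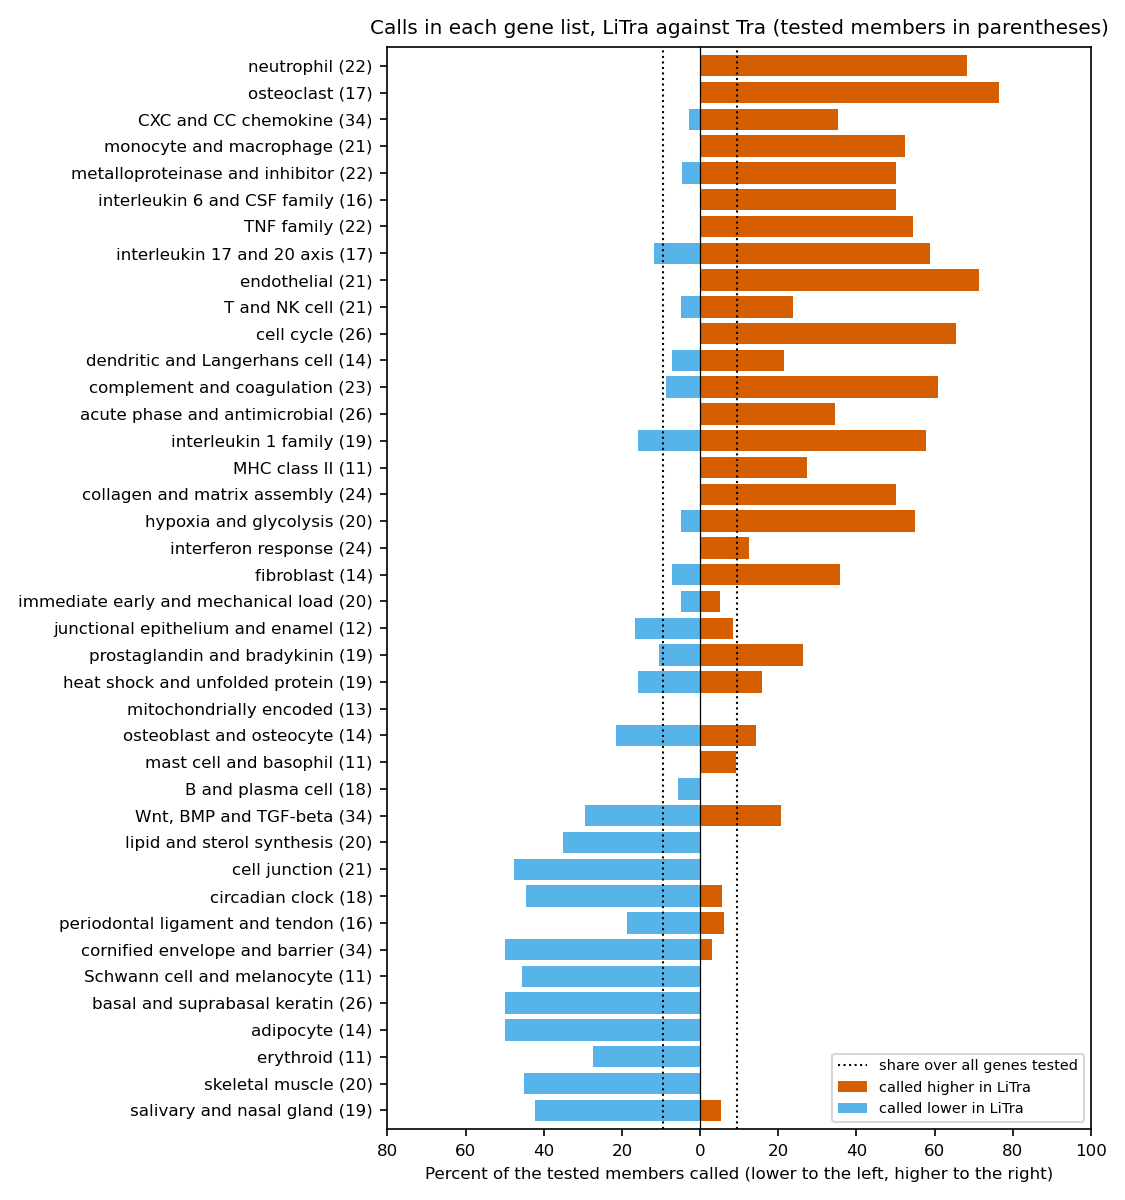
Percent of the tested members of each of the 40 gene lists that rose (right) or fell (left) in LiTra against Tra, with the number tested in parentheses and the shares over all genes, 9.36% and 9.44%, as dotted lines. The lists are ordered by median log2 difference, from the neutrophil list, with 15 of 22 up, to the gland list, with 8 of 19 down.

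Matrix-degrading enzymes rose in both of their main families. Mmp13, the interstitial collagenase of rodents, stood at 24.3, 129, 49.2 and 61.5 CPM in Tra and 1279.6, 1389.8, 661 and 907 CPM in LiTra (4.01 ± 0.53, adjusted p = 0.000676). Mmp3, stromelysin, which activates collagenases, went from 11.6, 15.2, 2.17 and 2.43 CPM to 408, 180.5, 97.9 and 361 CPM (5.06 ± 0.95, adjusted p = 0.00331). Adamts4, which cleaves the large proteoglycans, went from 0.739, 1.68, 2.04 and 2.83 CPM to 27.9, 18.9, 15.9 and 33.2 CPM (3.72 ± 0.44, adjusted p = 0.000465). The groups of all 3 genes were apart, and LiTra 3 was the lowest ligated library in each.

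Of the inhibitors, Timp1, a secreted inhibitor that inflammation induces, rose from 9.28, 20.9, 5.71 and 9.87 CPM to 270.3, 168, 108 and 199.5 CPM (4.03 ± 0.56, adjusted p = 0.000762). Timp3, which is bound to matrix and also inhibits ADAMTS enzymes, fell from 269.6, 288, 248 and 305 CPM to 129.8, 188, 239 and 128 CPM (-0.70 ± 0.20, adjusted p = 0.0264). In Timp3, LiTra 3 came close to the lowest Tra library, and it missed the threshold without Tra 1, Tra 4, LiTra 1 or LiTra 4 (adjusted p = 0.0502 to 0.0854) and with library totals as the scaling (adjusted p = 0.0831). Of 22 tested metalloproteinases and inhibitors 11 rose and 1 fell (median 1.315). Mmp14, the membrane-bound activator, was not called (0.65 ± 0.26, adjusted p = 0.0923).

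Genes that build and cross-link collagen fibres rose while the main fibre gene did not. Lox, lysyl oxidase, went from 25.9, 28.2, 38.2 and 28.2 CPM to 159.8, 135, 157 and 154 CPM (2.33 ± 0.34, adjusted p = 0.000947). Plod2, which hydroxylates telopeptide lysines for cross-links, rose by 1.41 ± 0.22, P4ha3, a prolyl hydroxylase, by 1.64 ± 0.31, and the collagen chaperone gene Serpinh1 by 0.70 ± 0.17. Col12a1, a collagen that coats fibrils, went from 393, 396, 363 and 477 CPM to 1127, 753, 1267 and 948 CPM (1.33 ± 0.27, adjusted p = 0.00495). Col1a1 stood at 521, 464, 1089 and 1873 CPM in Tra and 439, 553, 1036 and 593 CPM in LiTra, with groups that overlapped throughout (-0.59 ± 0.44, adjusted p = 0.39). Of 24 tested collagen and matrix genes 12 rose and none fell (median 0.61).

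Of 14 fibroblast genes 5 rose and 1 fell (median 0.39). Pdgfra, the receptor that marks most fibroblasts, went from 83.7, 98.8, 83.5 and 65.6 CPM to 183, 178, 165 and 190.3 CPM (1.11 ± 0.21, adjusted p = 0.00355), while Dcn, the proteoglycan decorin, was not called (0.13 ± 0.16, adjusted p = 0.634). Gsn, gelsolin, fell from 998, 759, 948 and 898 CPM to 379.9, 447, 447 and 413 CPM (-1.10 ± 0.16, adjusted p = 0.000918). The 5 became 3 without Tra 3. Of 16 periodontal ligament and tendon genes 1 rose and 3 fell (median -0.77). The riser was Prg4, lubricin, at 0.911, 1.49, 1.09 and 1.06 CPM in Tra and 22.0, 7.36, 16.3 and 17.9 CPM in LiTra (3.80 ± 0.93, adjusted p = 0.0117). Chad, chondroadherin, fell by 2.30 on the log2 scale, Thbs4 by 1.20 and Scx, the tendon factor scleraxis, by 0.95. Postn, the abundant ligament matrix protein periostin, was not called, at 865, 1393, 831 and 1099 CPM against 957, 1307, 1603 and 1046 CPM (0.23 ± 0.24, adjusted p = 0.565). The 3 falls became 5 without Li 2, 6 without LiTra 3 and 1 without LiTra 4. Thbs4 missed the threshold without Co 1, Li 3, Tra 3, Tra 4, LiTra 1, LiTra 2 or LiTra 4 (adjusted p = 0.0505 to 0.135), and Scx without Tra 1, Tra 2, LiTra 3 or LiTra 4 (adjusted p = 0.0573 to 0.0884).

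Osteoclast genes rose in 13 of 17 tested and fell in none. Tnfsf11, which encodes RANKL, stood at 0.517, 3.53, 2.17 and 1.15 CPM in Tra and 23.1, 18.4, 7.41 and 17.7 CPM in LiTra (3.17 ± 0.69, adjusted p = 0.00639). Its receptor gene Tnfrsf11a went from 3.20, 5.34, 4.12 and 3.51 CPM to 12.8, 14.6, 16.6 and 11.02 CPM (1.76 ± 0.26, adjusted p = 0.00106). The decoy receptor gene Tnfrsf11b, osteoprotegerin, rose by less, from 12.2, 19.4, 8.42 and 18.5 CPM to 38.5, 23.7, 29.9 and 31.8 CPM (1.08 ± 0.33, adjusted p = 0.0311). For all 3 genes the ligated libraries lay above the Tra libraries. Of the 3, only Tnfrsf11a is in the osteoclast list, and all are counted in the TNF family list. Tnfrsf11b missed the threshold without Tra 1, Tra 3, LiTra 1, LiTra 3 or LiTra 4 (adjusted p = 0.08, 0.0856, 0.0826, 0.0524 and 0.0676).

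The acid pump subunit gene Tcirg1 stood at 27.9, 55.3, 36.0 and 40.0 CPM in Tra and 128, 141, 125 and 137 CPM in LiTra (1.74 ± 0.19, adjusted p = 0.000397). Ctsk, the collagenase of the resorption pit, went from 68.1, 297, 95.9 and 87.8 CPM to 477, 739, 723 and 418 CPM (2.104 ± 0.393, adjusted p = 0.00324), and Acp5, tartrate-resistant acid phosphatase, from 32.6, 135, 47.9 and 35.9 CPM to 195, 307, 272 and 198 CPM (1.95 ± 0.37, adjusted p = 0.0034). Tra 2 was the highest Tra library for each of these genes and still below the ligated libraries. The fusion gene Dcstamp rose by 3.14 ± 0.76, its partner Ocstamp by 2.59 ± 0.55, and Nfatc1, the master transcription factor, by 1.10 ± 0.31. Nfatc1 missed the threshold without Tra 2 (adjusted p = 0.0714) or LiTra 3 (adjusted p = 0.0512). The median of the osteoclast list was 1.76, with the same count of 13 without both Tra 1 and Tra 2 and 12 to 15 on leaving out single libraries.

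Of 14 osteoblast and osteocyte genes 2 rose and 3 fell (median -0.19). Bglap, osteocalcin, fell from 126, 79.3, 89.4 and 126 CPM to 12.3, 12.7, 23.2 and 1.74 CPM (-3.07 ± 0.63, adjusted p = 0.00497), as did its near-identical neighbour Bglap2 (-2.95 ± 0.61), with which it may share reads. LiTra 4 was the lowest library for both copies. Spp1, osteopontin, which macrophages and osteoclasts also make, went from 23.4, 275, 37.9 and 22.4 CPM to 530.1, 891, 797 and 477 CPM (2.91 ± 0.75, adjusted p = 0.015). Ibsp, bone sialoprotein, rose by 0.94 ± 0.30 (adjusted p = 0.0429) but missed the threshold without Co 1, Tra 1, Tra 3, Tra 4 or any 1 LiTra library (adjusted p = 0.0517 to 0.114), which left 1 rise in the list. Runx2, the osteoblast transcription factor, was not called (0.16 ± 0.20, adjusted p = 0.648). Whether bone fragments came with the gingiva was not tested.

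Endothelial genes rose in 15 of 21 tested and fell in none (median 1.07), and on leaving out single libraries 15 to 17 rose. Apln, apelin, a peptide of sprouting endothelium, had the lowest adjusted p of the named genes: it stood at 1.75, 1.25, 0.760 and 0.683 CPM in Tra and 9.58, 14.9, 10.6 and 12.9 CPM in LiTra (3.43 ± 0.35, adjusted p = 0.000353). Its receptor gene Aplnr rose by 1.45 ± 0.29. The leukocyte-capturing selectins rose too, Selp from 10.2, 10.3, 9.27 and 19.0 CPM to 75.5, 45.8, 48.9 and 118 CPM (2.56 ± 0.41, adjusted p = 0.00166) and Sele by 2.28 ± 0.41, as did the adhesion ligands Icam1 (1.53 ± 0.30) and Vcam1 (1.34 ± 0.25). Pan-endothelial Pecam1 went from 57.4, 59.2, 72.9 and 67.9 CPM to 128, 132, 143 and 165 CPM (1.14 ± 0.17, adjusted p = 0.000971). Emcn, endomucin, differed little within each group, at 15.96, 16.03, 13.87 and 15.97 CPM against 29.6, 34.1, 31.3 and 34.0 CPM (1.06 ± 0.14, adjusted p = 0.000676).

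Of 23 complement and coagulation genes 14 rose and 2 fell (median 0.94). The urokinase receptor gene Plaur rose by 2.70 ± 0.51 and urokinase itself, Plau, by 0.94 ± 0.18. Properdin, Cfp, which stabilises the alternative convertase, rose by 1.98 ± 0.34, and Cfb by 2.23 ± 0.52. The genes that fell were F3, tissue factor (-0.81 ± 0.24, adjusted p = 0.0302), and Cfd, adipsin, an adipocyte product given below. F3 missed the threshold without Tra 1, Tra 2, LiTra 1, LiTra 2 or LiTra 4 (adjusted p = 0.0604 to 0.104), and the 2 falls became 0 without Tra 1, LiTra 1, LiTra 2 or LiTra 4 and 1 without Tra 2.

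Of 20 hypoxia and glycolysis genes 11 rose and 1 fell (median 0.43). The lactate exporter gene Slc16a3 went from 14.2, 15.6, 7.62 and 14.5 CPM to 89.3, 39.2, 67.2 and 75.1 CPM (2.38 ± 0.37, adjusted p = 0.00135), Car9, a hypoxia-induced carbonic anhydrase, rose by 2.09 ± 0.30, and Vegfa from 107, 93.6, 74.0 and 87.5 CPM to 198, 160.2, 174 and 185 CPM (0.99 ± 0.14, adjusted p = 0.000844). Adm, another hypoxia gene, was not called (0.23 ± 0.40, adjusted p = 0.747). Of 19 prostaglandin and bradykinin genes 5 rose and 2 fell (median 0.03). The inducible cyclooxygenase gene Ptgs2 went from 8.10, 12.2, 4.47 and 7.94 CPM to 149, 59.9, 18.6 and 113 CPM (3.38 ± 0.75, adjusted p = 0.00713), while the constitutive Ptgs1 fell from 32.4, 33.0, 31.3 and 27.4 CPM to 18.6, 20.4, 18.9 and 20.5 CPM (-0.66 ± 0.12, adjusted p = 0.00334). Bdkrb1, the bradykinin receptor that injury induces, rose by 2.51 ± 0.33.

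The epithelium showed a rise of several, not all, Sprr2 small proline-rich genes and a fall of differentiation keratins. Sprr2a1, a cornified envelope precursor that inflamed mucosae induce, stood at 29.7, 219.9, 20.6 and 199.8 CPM in Tra and 3171, 2589, 1664 and 2909 CPM in LiTra (4.46 ± 0.73, adjusted p = 0.00183). Tra 2 and Tra 4 were several times above Tra 1 and Tra 3, and all were far below the ligated libraries. The value of Sprr2a2 ran almost the same (4.38 ± 0.72), and the promoter windows of the pair are identical over 300 of 300 bases, so reads of near-identical copies may be split between them. Sprr2b rose by 6.23 ± 1.26 and Sprr2i by 4.56 ± 0.80, and Sprr2b did not pass with limma-voom (adjusted p = 0.207). Sprr1b, of another subfamily, fell by 1.06 on the log2 scale (adjusted p = 0.0483) but missed the threshold without Co 1 to 3, Li 2, Li 3, Tra 3, Tra 4 or any 1 LiTra library (adjusted p = 0.0512 to 0.146). Sprr3 was not called (-0.93 ± 0.42, adjusted p = 0.134).

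**Figure D3:**
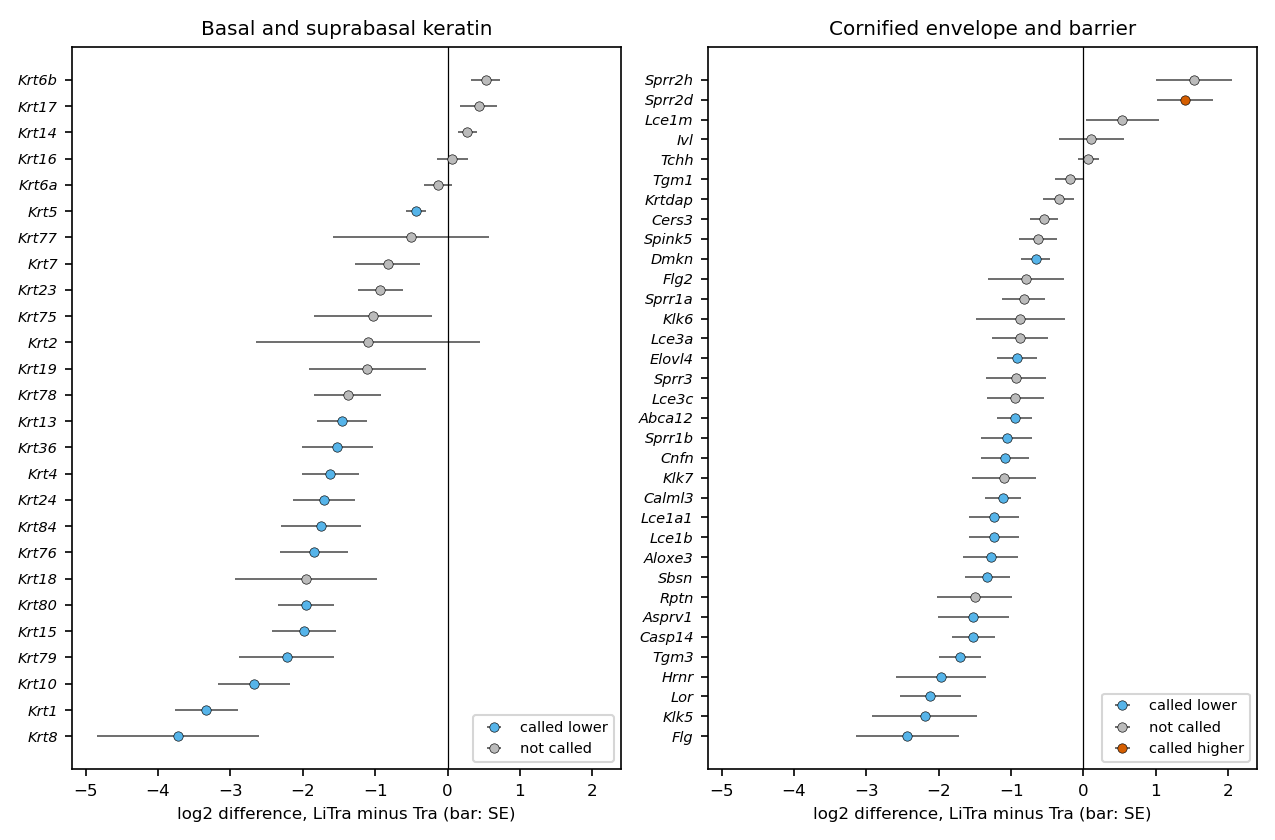
Log2 difference, LiTra minus Tra, with its standard error as a bar, for the 26 tested keratin genes (left) and the 34 tested cornified envelope and barrier genes (right), coloured by whether they passed the test. Krt1 and Krt10 lie at -3.33 and -2.67, Krt14 and Krt6b at 0.28 and 0.53 in grey without passing, and Sprr2d at 1.41 is the one gene of the list that rose; Sprr2a1, Sprr2a2, Sprr2b and Sprr2i are not in the list.

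Keratins of several epithelial layers fell. Krt1, of the suprabasal layers of keratinised epithelium, stood at 206, 265, 200.2 and 201 CPM in Tra and 27.7, 26.0, 22.2 and 10.7 CPM in LiTra (-3.33 ± 0.44, adjusted p = 0.000676). Its pairing partner Krt10 went from 1596, 1417, 2504 and 2811 CPM to 202, 375, 474 and 257 CPM (-2.67 ± 0.50, adjusted p = 0.00331). Krt76, a keratin of masticatory mucosa, went from 16679.5, 17251, 21847 and 19054 CPM to 3288, 5721, 8217 and 3594 CPM (-1.85 ± 0.47, adjusted p = 0.0151). None of these genes' groups overlapped.

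The keratins of non-cornified mucosa fell as well, Krt13 from 46629.7, 43340.3, 31022 and 34100.1 CPM to 19092, 12305, 16187 and 8726 CPM (-1.46 ± 0.35, adjusted p = 0.0101) and Krt4 by 1.62 on the log2 scale (adjusted p = 0.0116). Of the basal keratins, Krt15 went from 1069.8, 879, 1129 and 1041 CPM to 139, 299, 472 and 134 CPM (-1.98 ± 0.44, adjusted p = 0.00734), Krt5 fell by 0.43 on the log2 scale (adjusted p = 0.0436), and Krt14 was not called (0.28 ± 0.14, adjusted p = 0.174). The wound and hyperproliferation keratins Krt6a (-0.13 ± 0.19, adjusted p = 0.696), Krt6b (0.53 ± 0.20, adjusted p = 0.0745), Krt16 (0.07 ± 0.21, adjusted p = 0.878) and Krt17 (0.43 ± 0.25, adjusted p = 0.267) were not called. Of 26 tested keratins 13 fell and none rose (median -1.42). The 13 became 8 without LiTra 2, without LiTra 4 or without both Tra 1 and Tra 2, where Krt13 (adjusted p = 0.0715) and Krt4 (adjusted p = 0.129) missed the threshold; with library totals as the scaling 12 fell and 2 rose. Krt5 also missed it under that scaling (adjusted p = 0.153) and without Co 4, Li 1, Li 3, Tra 1, Tra 3, Tra 4, LiTra 1, LiTra 2 or LiTra 4 (adjusted p = 0.0509 to 0.124), and Krt76 without LiTra 4 (adjusted p = 0.0516).

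Of 34 cornified envelope and barrier genes 17 fell and 1 rose (median -0.95), the riser being Sprr2d (1.41 ± 0.39, adjusted p = 0.021), which missed the threshold without Tra 1, Tra 3, LiTra 1 or LiTra 4 (adjusted p = 0.0507 to 0.0623). The list does not hold Sprr2a1, Sprr2a2, Sprr2b or Sprr2i, but it holds Sprr2h, which did not pass as a rise. The rises in the list became 0 in those 4 omissions and 2 without Li 2, Li 3, Tra 4, LiTra 2 or LiTra 3. Lor, loricrin, the main envelope protein, went from 1664, 1405, 2094 and 2750.2 CPM to 569.7, 439, 429 and 388 CPM (-2.12 ± 0.42, adjusted p = 0.0044). Tgm3, the transglutaminase that cross-links it, went from 1756, 1334, 1078 and 1263 CPM to 513, 367, 389 and 391 CPM (-1.71 ± 0.29, adjusted p = 0.00193). Flg, filaggrin, which bundles keratin filaments, went from 112, 156, 346 and 312 CPM to 28.8, 81.9, 43.7 and 16.98 CPM (-2.43 ± 0.71, adjusted p = 0.0277). The groups were apart in each gene. Flg missed the threshold without Tra 3, Tra 4, LiTra 1, LiTra 3 or LiTra 4 (adjusted p = 0.0598 to 0.0807). Casp14, a caspase of cornifying cells, fell by 1.52 on the log2 scale (adjusted p = 0.00399), and Ivl, involucrin, was not called (0.11 ± 0.45, adjusted p = 0.905). The envelope list took 2.88 to 3.24% of counts in Tra and 0.891 to 1.62% in LiTra. Its 17 falls became 10 without Tra 1, 9 without Tra 3, 8 without Tra 4, 11 without LiTra 2, 7 without LiTra 3, 5 without LiTra 4 and 6 without both Tra 1 and Tra 2.

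Of 21 cell junction genes 10 fell and none rose (median -0.49). Among them were the envelope-desmosome linkers: Evpl, envoplakin, went from 399, 273, 345 and 444 CPM to 173, 131, 163 and 141 CPM (-1.26 ± 0.24, adjusted p = 0.0032), Ppl, periplakin, fell by 1.25 on the log2 scale, Pkp1, plakophilin, by 0.78, and Dsp, desmoplakin, by 0.65 (adjusted p = 0.00592). The adherens cadherin gene Cdh1 was not called (-0.27 ± 0.12, adjusted p = 0.141). The 10 became 6 without Tra 3, Tra 4, LiTra 2 or LiTra 4. Of 12 junctional epithelium and enamel genes 1 rose and 2 fell (median 0.03). Odam went from 368, 473, 324 and 597 CPM to 286, 181, 293 and 158 CPM (-0.94 ± 0.27, adjusted p = 0.0253), Sox21, a factor of ameloblast and epithelial lineages, from 22.4, 19.5, 34.2 and 28.9 CPM to 8.41, 10.3, 10.9 and 10.9 CPM (-1.37 ± 0.26, adjusted p = 0.00334), and the integrin gene Itgb6 rose by 0.62 ± 0.20 (adjusted p = 0.0392). Odam missed the threshold without Tra 4, LiTra 2 or LiTra 4 (adjusted p = 0.0832, 0.0715 and 0.081), and Itgb6 without Co 3, any 1 Tra library, LiTra 1, LiTra 3 or LiTra 4 (adjusted p = 0.0512 to 0.107).

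Genes of mitosis rose. Ccnb1, the mitotic cyclin, stood at 15.8, 18.5, 28.3 and 29.5 CPM in Tra and 62.9, 58.3, 60.2 and 58.9 CPM in LiTra (1.38 ± 0.20, adjusted p = 0.000918). Cenpa, the centromeric histone, went from 9.06, 12.8, 16.5 and 17.6 CPM to 39.0, 38.7, 40.3 and 40.6 CPM (1.499 ± 0.197, adjusted p = 0.000676). The ligated libraries were close to each other and the Tra libraries spread from Tra 1, the lowest, to Tra 4. Mki67 rose by 0.90 ± 0.18, Top2a by 1.06 ± 0.17 and Cdk1 by 1.29 ± 0.22, while the replication helicase gene Mcm5 was not called (0.29 ± 0.13, adjusted p = 0.125). Of 26 tested cell cycle genes 17 rose and none fell (median 0.98), and 14 rose without both Tra 1 and Tra 2.

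Among genes outside the lists, Lrat, lecithin retinol acyltransferase, which stores retinol as esters, rose from 0.443, 0.539, 1.24 and 1.01 CPM to 39.1, 31.3, 6.87 and 38.9 CPM (5.16 ± 0.68, adjusted p = 0.000676). LiTra 3 stood well below the other ligated libraries and above all Tra libraries. Anxa1, annexin A1, an abundant anti-inflammatory protein of epithelium and leukocytes, had one of the largest rises by amount, from 1520.4, 1616, 1613 and 2233 CPM to 4787, 2994, 4684 and 4233 CPM (1.26 ± 0.22, adjusted p = 0.00253).

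Wnt, BMP and TGF-beta genes moved both ways, 7 of 34 up and 10 down (median -0.46), and 9 up and 8 down with library totals as the scaling. The epithelial Wnt ligands fell, Wnt4 from 158, 112, 145 and 154 CPM to 81.7, 62.2, 75.8 and 87.9 CPM (-0.89 ± 0.18, adjusted p = 0.00446) and Wnt7b by 1.53 on the log2 scale (adjusted p = 0.00478), and so did Wnt targets, Axin2 (-0.89) and Lef1 (-1.497). Wnt3 had 71 counts in Tra and none in LiTra, at least 22.8-fold lower. The Wnt antagonist gene Sfrp1 went the other way, from 38.0, 39.6, 41.1 and 44.1 CPM to 114, 119, 87.3 and 113 CPM (1.41 ± 0.25, adjusted p = 0.00278). Inhba, the activin A subunit, a wound-induced ligand, went from 9.01, 12.3, 6.71 and 14.2 CPM to 153, 124, 57.0 and 119 CPM (3.42 ± 0.48, adjusted p = 0.000803), and Tgfbi, a TGF-beta-induced matrix protein, rose by 1.22 ± 0.19.

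Of 20 lipid and sterol synthesis genes 7 fell and none rose (median -0.48). Dhcr7, which makes the last step to cholesterol, went from 42.6, 36.0, 49.1 and 48.1 CPM to 16.6, 18.8, 25.3 and 20.2 CPM (-1.12 ± 0.19, adjusted p = 0.00232), and Scd1, the stearoyl desaturase, fell by 1.04 on the log2 scale (adjusted p = 0.0195). The 7 became 4 without Co 1 or Co 3, 3 without Tra 1 or LiTra 1, 2 without Tra 4 or LiTra 4, 1 without Tra 3 or LiTra 2, and 2 with library totals as the scaling. Scd1 missed the threshold without Tra 3 (adjusted p = 0.0549) or LiTra 2 (adjusted p = 0.0524).

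Genes of tissues that lie beside the gingiva fell, and their values varied widely within Tra. The largest falls by fold were mucous gland genes. Muc5b, a gel-forming mucin, stood at 55.5, 468, 3797 and 2470.0 CPM in Tra and 0, 2.30, 0.189 and 13.9 CPM in LiTra (-8.69 ± 2.50, adjusted p = 0.026). Tff2, a trefoil peptide of mucous cells, stood at 18, 167, 974 and 456 CPM in Tra and 0, 0.0690, 0 and 0.573 CPM in LiTra (-11.24 ± 2.49, adjusted p = 0.00713). Tra 3 and Tra 4 were the highest for these genes, and even Tra 1, the lowest, lay above all ligated libraries. Dcpp2, one of 3 near-identical secretory genes beside Dcpp1 and Dcpp3, had 7936 counts in Tra and none in LiTra, at least 2544-fold lower. With limma-voom, Dcpp2 (adjusted p = 0.743), Dcpp1 (adjusted p = 0.782) and Dcpp3 (adjusted p = 0.771) did not pass.

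The nasal gland genes Obp1a, Obp2a and Obp2b followed another library: Obp2a was at 18.9, 8776, 0.803 and 0.353 CPM in Tra, almost all of it in Tra 2, and at 1.14, 6.35, 1.14 and 0.413 CPM in LiTra (-9.92 ± 3.38, adjusted p = 0.0526). Gland genes took 0.00877 to 0.0309% of counts in LiTra, and the untreated libraries also ranged widely, down to 0.0141% in Co 4. Of 19 tested gland genes 8 fell and 1 rose (median -3.93), the riser being Lpo, lactoperoxidase (3.50 ± 0.87, adjusted p = 0.0124). The 8 became 5 without Tra 2, 4 without any 1 LiTra library, 6 (median 0.19) without both Tra 1 and Tra 2, and 2 with limma-voom, where Muc5b (adjusted p = 0.526) and Tff2 (adjusted p = 0.762) did not pass. Muc5b also missed the threshold without LiTra 1, LiTra 2 or LiTra 3 (adjusted p = 0.0601, 0.0687 and 0.0608).

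**Figure D4:**
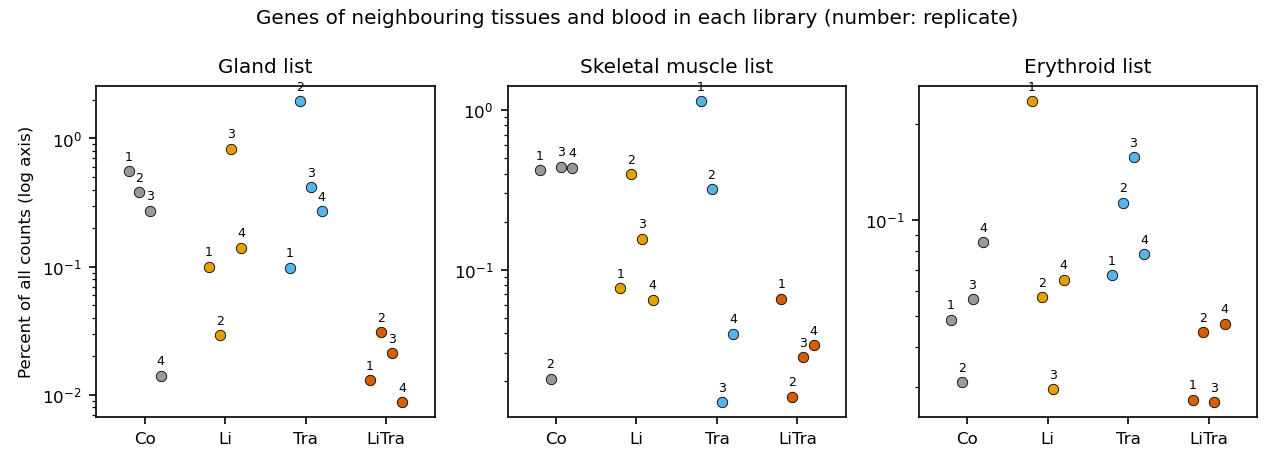
Percent of TMM-scaled counts, on log axes labelled as percent of all counts, taken by the gland, skeletal muscle and erythroid lists. Each of the 16 gingival libraries is 1 point, numbered by its replicate. Muscle genes stand at 1.14% and 0.318% in Tra 1 and Tra 2 and at 0.0148% and 0.0398% in Tra 3 and Tra 4, and gland genes reach 1.96% in Tra 2.

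Skeletal muscle genes fell in 9 of 20 tested and rose in none (median -3.36). Tcap, telethonin of the muscle Z-disc, stood at 334, 55.8, 2.80 and 8.48 CPM in Tra and 6.28, 2.23, 3.101 and 3.23 CPM in LiTra (-4.76 ± 1.29, adjusted p = 0.0195), so Tra 1 and Tra 2 were high, Tra 3 lay within the range of the ligated libraries and Tra 4 a little above it. Tcap missed the threshold without Tra 1, LiTra 2, LiTra 3 or LiTra 4 (adjusted p = 0.0505 to 0.102). Without Tra 1 and Tra 2 none of the muscle genes passed and their median was 0.216, and with limma-voom none passed. The 9 became 1 without Tra 1, 4 without LiTra 1, 2 without LiTra 2 or LiTra 4, 3 without LiTra 3, and 14 without Co 2 or Tra 3.

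Of 11 erythroid genes 3 fell (median -1.498), Hba-a1, its near-identical copy Hba-a2, and Alas2, the first enzyme of haem synthesis in red cell precursors. Hba-a1 went from 187, 323, 436 and 212 CPM to 72.9, 120.5, 72.2 and 124 CPM (-1.57 ± 0.50, adjusted p = 0.0417), and the 3 became 0 without Co 1, Co 3, Tra 2, Tra 3 or any 1 LiTra library, 1 without Tra 4, 6 without Li 1 and 5 without Li 3. Hba-a1 missed the threshold when any of Co 1, Co 3, Tra 2 to 4 or LiTra 1 to 4 was left out (adjusted p = 0.0522 to 0.114). Of 14 adipocyte genes 7 fell (median -1.45). Cfd, adipsin, went from 14.7, 7.71, 7.21 and 7.98 CPM to 0.253, 0.828, 4.26 and 0.711 CPM (-2.63 ± 0.76, adjusted p = 0.0267), and Dgat2, a triglyceride synthase that epithelium also expresses, fell by 0.95 on the log2 scale (adjusted p = 0.00529). The 7 became 3 without Tra 1, LiTra 2, LiTra 4 or both Tra 1 and Tra 2, and 4 without Tra 4 or LiTra 1; Cfd missed the threshold without Tra 1, LiTra 1, LiTra 2 or LiTra 4 (adjusted p = 0.0613 to 0.0802). Of 11 Schwann cell and melanocyte genes 5 fell (median -0.98). Mbp, a myelin protein, went from 62.1, 60.6, 75.1 and 60.1 CPM to 38.3, 37.6, 40.8 and 39.6 CPM (-0.72 ± 0.16, adjusted p = 0.00675). The 5 became 2 without Tra 3 or LiTra 1 and 3 without Tra 4 or LiTra 3. The part of gland, muscle, fat and nerve carried into each sample in these falls was not tested.

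Of 18 circadian clock genes 8 fell and 1 rose (median -0.62). Nr1d1, which encodes the clock repressor REV-ERBα, went from 54.8, 33.9, 36.8 and 33.8 CPM to 21.7, 22.9, 20.7 and 20.3 CPM (-0.89 ± 0.18, adjusted p = 0.005), Per2 fell by 0.76 on the log2 scale, and Tef, an output factor, from 290.0, 252, 197 and 194 CPM to 125, 176, 161 and 125 CPM (-0.67 ± 0.14, adjusted p = 0.0058). Nfil3, which opposes such factors, rose by 0.996 ± 0.332 but missed the threshold without Co 3, Co 4, Li 1, Li 4, any 1 Tra library, LiTra 1, LiTra 2 or LiTra 4 (adjusted p = 0.0542 to 0.128). Tef missed the threshold without both Tra 1 and Tra 2 (adjusted p = 0.0638). Arntl, the core activator, was not called (-0.60 ± 0.28, adjusted p = 0.143). The labels give no hour of sampling, and its part in these values was not tested.

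Heat shock and unfolded protein genes rose in 3 and fell in 3 of 19 tested (median -0.09, which turned to 0.0552 with library totals as the scaling). The cytosolic chaperones Hspa1a, whose near-identical copy Hspa1b may share its reads, from 86.6, 58.9, 106 and 117 CPM to 48.1, 35.4, 47.3 and 46.3 CPM (-1.06 ± 0.24, adjusted p = 0.00765), and Hspb1 (-0.74 ± 0.17) fell, and the endoplasmic reticulum chaperone Hsp90b1 rose from 422, 467, 524 and 502 CPM to 829, 646, 779.6 and 862 CPM (0.70 ± 0.11, adjusted p = 0.00137). Of 24 interferon response genes 3 rose (median 0.40), a share near the 9.36% of all genes tested. They were Irf1, from 16.7, 19.8, 12.6 and 21.7 CPM to 36.4, 29.7, 44.8 and 48.5 CPM (1.17 ± 0.24, adjusted p = 0.00512), and the guanylate-binding and immunity-related GTPases Gbp5 (1.92 ± 0.47) and Ifi47, which interferon gamma induces. Ifi47 missed the threshold without Tra 1, Tra 3 or LiTra 3 (adjusted p = 0.0598 to 0.0775). The interferon-induced gene Ifit3 was not called (-0.11 ± 0.46, adjusted p = 0.91). Among 20 immediate early and mechanical load genes 1 rose and 1 fell (median 0.16), Ptk2, focal adhesion kinase (0.50 ± 0.13, adjusted p = 0.0141), and Jund (-0.91 ± 0.23, adjusted p = 0.0136). Without both Tra 1 and Tra 2 none rose and 4 fell (median 0.00265), and Ptk2 missed the threshold (adjusted p = 0.118). None of the 13 mitochondrially encoded genes was called (median -0.17, and 0.258 without both Tra 1 and Tra 2).

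Without both Tra 1 and Tra 2, the counts not given above were as follows, in genes that rose and fell. Among cytokine and chemokine lists, the acute-phase list had 6 and 1, TNF 9 and 0, interleukin 1 9 and 1, interleukin 6 7 and 0, and chemokines 15 and 2. Among cell lists, monocyte and macrophage genes had 13 and 0, dendritic 0 and 1, class II 2 and 0, B and plasma cell 0 and 0, mast cell 1 and 1, erythroid 0 and 0, fibroblast 5 and 1, endothelial 15 and 1, and Schwann cell 0 and 4. Collagen and matrix genes had 9 and 0, metalloproteinases 8 and 1, ligament and tendon 0 and 2, osteoblast 1 and 2, complement and coagulation 13 and 0, hypoxia 8 and 1, and prostaglandin 4 and 2. Junction genes had 0 and 7, junctional epithelium 0 and 1, lipid synthesis 0 and 7, Wnt, BMP and TGF-beta 6 and 12, clock 0 and 7, heat shock 1 and 3, and interferon 2 and 0. The single rises of the envelope and gland lists were also lost.

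The ligature without resin was compared as Li against Co, whose fold changes use none of the Tra or LiTra libraries although the fit is shared. Li against Co called 1509 genes (7.49%), 1046 up (5.19%) and 463 down (2.30%). The total of 1509 became 521 without Co 1 and 2191 without Li 3, so the counts from this comparison depend on single libraries. Li 3 and Li 4 lay at -28.07 and -4.93 on the first component and Li 1 and Li 2 at 64.63 and 67.37. Of the genes that rose, 704 rose in both comparisons, 37.4% of the 1885 and 67.3% of the 1046. Of those that fell, 233 fell in both, 12.3% of the 1902 and 50.3% of the 463.

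Values of single genes in both comparisons can be set side by side. Saa3 rose by 9.74 with resin and by 8.94 (adjusted p = 0.00186) without it, Il1rl1 by 4.09 and 3.55, Mmp13 by 4.01 and 3.88, Tcirg1 by 1.74 and 1.63, and Sprr2a1 by 4.46 and 5.34. Krt10 differed by -2.67 with resin and by -0.70 (adjusted p = 0.408) without it, Tgm3 by -1.71 and -0.62 (adjusted p = 0.191), Gsn by -1.10 and -0.14 (adjusted p = 0.655), and Anxa1 by 1.26 and 0.39 (adjusted p = 0.302). Ccnb1 stood at 1.38 with resin and 0.40 (adjusted p = 0.231) without it. In the lists, 17 cell cycle genes rose with resin and 3 without, 13 and 2 keratins fell, 17 and 0 envelope genes fell, while 13 and 15 osteoclast genes and 15 and 14 endothelial genes rose.

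**Figure D5:**
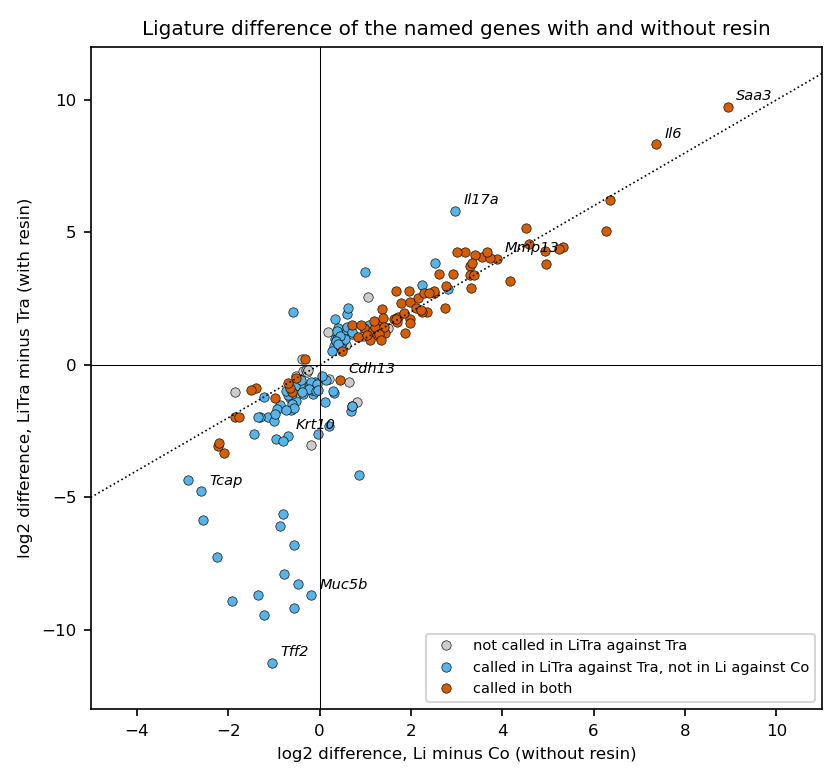
Log2 difference LiTra minus Tra (vertical) against Li minus Co (horizontal) for 187 named genes, 80 of them called in both and 90 called with resin alone; 4 genes with a group at 0 counts are left out. The dotted line marks equal values: Saa3, Il6 and Mmp13 lie near it, Krt10, Muc5b and Tff2 lie below it, and Cdh13 has opposite signs.

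The difference between these differences was tested as the interaction, and it called none of the 20143 genes (0%, lowest adjusted p = 0.255). At an unadjusted p under 0.05 there were 2289 genes, DESeq2 called 183, 83 up and 100 down, limma-voom called none, and edgeR called 1 without Co 4. No gene named above is thus shown by this test to respond to the ligature differently with resin than without it. Among the genes with the lowest interaction p were Cdh13, T-cadherin, and the unnamed gene model Gm5641. Cdh13 stood at a mean of 41.5 CPM in Co, 56.2 in Li, 66.2 in Tra and 44.9 in LiTra: it rose with the ligature alone (0.44, adjusted p = 0.0348) and fell with the ligature on the resin-bearing tooth (-0.56 ± 0.12, adjusted p = 0.0052), with an interaction of -0.9997 (edgeR, adjusted p = 0.255).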

How the data were processed

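Gingival RNA was poly(A)-selected and sequenced, with 4 libraries in each of 4 groups, per the labels' protocols. The authors deposited estimated counts per gene, which need not be whole numbers. The submitters' processing notes name Trimmomatic 0.39, FastQC 0.11.9, HISAT2 2.2.1, StringTie 2.1.7, DESeq2 1.32.0 and the build GRCm39. Strand use in counting is not stated in them, which leaves overlapping, antisense and near-identical genes uncertain. From these deposited estimated counts, rounded to whole numbers, genes were kept with edgeR 4.0.16's filter (minimum count 10, minimum total 15, in R 4.3.3), scaled by TMM and fitted over all 16 libraries with the quasi-likelihood test, two-sided, with Benjamini-Hochberg adjustment and a threshold of 0.05. Contrasts were LiTra against Tra, Li against Co, and their interaction. Symbols were matched by gene ID for 52083 of 55359 rows. Total counts per library were 36913075 to 50740393.

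The members and lists were chosen with earlier results of these data known. Named genes were the 12 largest fold rises and falls whose groups did not overlap with a mean log2 CPM of at least 1, the 6 largest rises and falls in CPM, up to 4 members of each of 40 lists with the smallest p, the 3 smallest interaction p-values and 10 fixed genes; genes named beyond these were chosen after their values were seen. A fold against a group at 0 uses a floor of 3 counts over the group, and such bounds and intervals cover counting error only. On simulated data for LiTra against Tra over 19595 genes, 40.0% of 2-fold and 73.7% of 4-fold changes were recovered with 4 false calls (3.42% of calls). For the interaction, 27.8% of 2-fold and 58.2% of 4-fold changes were recovered. The simulation changed far fewer genes than were called in the data, so its shares need not hold for these libraries. Alternatives were DESeq2 1.42.0, limma-voom (limma 3.58.1), other scalings and filters, stricter thresholds, the pair of groups alone, a replicate block, each library left out, and, added after seeing the data, Tra 1 and Tra 2 left out together. Some genes that the naming rule selects are not reported here.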

Additional observations from a re-analysis of the deposited data

Results flagged for a closer look

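In groups of 4 libraries, a value was picked out where its gap to the nearest other library took most of the group's range by Dixon's 95% criterion on log2(CPM + 0.5). Chance flags about 1 in 20 groups, and 27 of 382 groups of named genes (7.07%) were picked out. LiTra 3 was the low library for Lrat (6.87 CPM), Il20ra (1.87 CPM), Sfrp1 (87.3 CPM), Il19 (0.923 CPM) and Il6 (0.971 CPM).

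LiTra 4 was the high library for the mucous gland genes Tff2 (0.573 CPM), Dcpp3 (0.275 CPM), Sbpl (2.2004 CPM), Dcpp1 (0.3896 CPM) and Smgc (0.183 CPM), and the low one for Bglap2 (2.41 CPM). LiTra 2 was low for Hspa1a (35.4 CPM) and Hspa1b (73.1 CPM). LiTra 1 was low for the lipid antigen presenter Cd1d1 (5.80 CPM), and it held the few Fcer2a counts of its group (0.0760 CPM).

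In Tra, library 2 was high for Krt1 (265 CPM), the macrophage genes Cd14 (24.1 CPM) and Cd68 (27.4 CPM), and Saa2 (0.0862 CPM). Tra 3 was low for Emcn (13.9 CPM) and Slc16a3 (7.62 CPM) and high for Mbp (75.1 CPM). Tra 4 was high for Anxa1 (2233 CPM), Il19 (0.141 CPM) and Il6 (0.165 CPM), and Tra 1 for Il20rb (54.0 CPM) and Cfd (14.7 CPM).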

How the results depend on the processing

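Of 191 named genes 173 passed the test, 111 of these passed under every alternative run, and no called gene turned its direction. The count of genes called in LiTra against Tra was 1485 at an adjusted p of 0.01 and 1680 with a fold of at least 2, and from 2402 (without LiTra 4) to 4150 (without Li 2) on leaving out single libraries. It was 4884 with DESeq2, 4251 with limma-voom, 2912 with no filter on low counts and 3734 in the pair of groups alone. Li against Co gave 337 at an adjusted p of 0.01, 641 with a fold of at least 2, 921 with no filter, 2736 with DESeq2, 407 in its 2 groups alone, and 521 (without Co 1) to 2191 (without Li 3) on leaving out single libraries. The interaction gave 183 with DESeq2 and 0 to 1 on leaving out single libraries. The cause of these differences was not tested.

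Signs turned in 3 uncalled mitochondrial genes: mt-Co3 stood at 0.0772 without Tra 1 and Tra 2, mt-Nd2 at 0.2412 and mt-Cytb at 0.2224, and on leaving out single libraries mt-Nd2 ran from -0.3909 to 0.0372 and mt-Cytb from -0.2956 to 0.0218. Deviations from the group means correlated weakly between same-numbered libraries. For LiTra and Tra, r was 0.113, 0.012, 0.01 and 0.08, against -0.101 to 0.075 between unlike numbers. For Li and Co, r was -0.207, -0.069, 0.022 and -0.017, against -0.216 to 0.277 between unlike numbers. The labels do not say whether the numbers pair libraries, and weak correlations cannot decide it. With a replicate block the counts were 3714, 1320 and 0. Depth limits genes near 0 counts, such as Il17f and Il22.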
